A study of Homo sapiens with 10 samples.

Results

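The mitochondrial solute carriers described here are the genes whose symbol starts with SLC25A or SFXN, together with UCP1, UCP2, UCP3, MTCH1 and MTCH2. They were found by symbol alone among the transcript clusters of the array, the units that the array assigns to genes, and no measured value entered the choice. There were 59 such genes among 18377 genes with a cluster that carries a single symbol, and they were measured by 61 clusters. Of the 59, 56 encode carriers or their relatives, SLC25A51P1 and SLC25A51P4 are pseudogenes, and SLC25A5-AS1 is an antisense RNA. Where a gene had a pair of clusters, the one with the higher mean over the 10 arrays was used. SLC25A6 had no cluster that names it alone and was not analysed here.

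The SLC25 family moves metabolites, nucleotides, cofactors and protons across the inner mitochondrial membrane, which is otherwise closed to such solutes. A typical member is a small protein of repeated homologous parts that binds its substrate in a central cavity and opens to one side of the membrane at a time. Sideroflexins form a separate family of the same membrane, of which SFXN1 is known as a transporter of serine for the one-carbon reactions of mitochondria. In tumour cells such as those of the pancreas these carriers connect glycolysis, fatty acid synthesis, amino acid use and respiration.

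Expression was measured in Panc1 cells, which grow as an epithelial line and come from a pancreatic carcinoma, 48 h after transduction with adenovirus at a multiplicity of infection of 150. Empty vector (EV), an Ad5CMV virus without an insert, was compared with tagged KLF11, a zinc finger transcription factor of the Sp/Krüppel-like family, in wild type form and as the A347S, Δ486 and EAPP mutants. The study made these mutants to part KLF11 from its cofactors: A347S from WD40-domain proteins, Δ486, which lacks the C-terminus, from the HP1 and histone methyltransferase system, and EAPP from Sin3 and histone deacetylases. All groups carry virus and the wild type KLF11 gene of the cells, and all constructs are driven by a viral promoter in 1 cell line. Each of the 5 groups has 2 arrays, which the methods and extract protocol describe as technical replicates of pooled RNA, while the sample titles number them as biological replicates. Errors below are therefore spreads between arrays, and p-values measure that spread, which may be technical. The RNA is that of whole cultures, in which fewer cells with a transcript and less of it per cell cannot be told apart. The number of arrays also limits the precision: the median standard error of a change against EV was 0.095 on the log2 scale.

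Over the 10 arrays the medians of the log2 values lay between 6.81 and 6.87, and the arrays of a group correlated across clusters at 0.996 to 0.997. The KLF11 cluster read 8.37 and 7.75 with EV and between 8.68 and 8.88 on the 8 arrays with a construct, and no source used here says whether its probes also detect the transduced copy. The 6 ductal epithelial markers read from 6.28 to 13.2 log2, the 3 acinar markers from 4.85 to 6.58, the 2 islet markers from 3.74 to 5.96, the 4 fibroblast markers from 3.25 to 8.31, the 3 leukocyte markers from 3.44 to 6.43 and the 2 endothelial markers from 4.56 to 5.62. In the order wild type KLF11, A347S, Δ486, EAPP, the ductal keratin KRT19 stood at -0.99, -1.51, -1.06 and -0.44 against EV and passed the threshold given below with all but EAPP. The leukocyte marker CD14 stood at 0.37, 0.59, 0.58 and 0.28 and passed with A347S (adjusted p = 0.00397). These were the only markers of the 20 measured that passed, and the other 5 ductal markers lay between -0.43 and 0.12, EPCAM among them at 0.12, 0.09, 0.07 and 0.07. Their part in the results on carriers was not tested.

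More carrier genes fell than rose with wild type KLF11, A347S and Δ486, and 5 members changed with all of these constructs. SFXN2, UCP2, SLC25A1 and SLC25A35 fell and SLC25A14 rose. With EAPP no member passed the test, and the changes of these 5 genes lay between -0.27 and 0.21 on the log2 scale. Rose, fell and changed are written here only of genes that passed a threshold of 0.05 on limma's Benjamini-Hochberg adjusted p, taken over 20961 clusters with a symbol, together with a fold of at least 1.5. With wild type KLF11 6 of the 59 members passed, which is 10.2% of them, against 3.99% of all clusters tested. There was 1 higher, against 2.21% of all clusters, and 5 lower, against 1.78%. A347S gave 11 members, or 18.6%, against 8.98% of all clusters, with 3 higher (3.63% of all) and 8 lower (5.35% of all). Δ486 gave 6 members, or 10.2%, against 5.61% of all clusters, with 1 higher (2.38% of all) and 5 lower (3.23% of all). EAPP gave 0 members by limma at this threshold, against 0.00477% of all clusters. At an unadjusted p under 0.05 there were 2 of the 59 members with EAPP, SLC25A20 and SLC25A35, against 8.73% of all clusters. Neither reached the 1.5-fold, which 0.181% of all clusters did at such a p.

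For wild type KLF11, A347S, Δ486 and EAPP, the median log2 changes of the 59 members were -0.12, -0.10, -0.08 and -0.01, beside -0.02, 0.01, 0.02 and 0.00 over all clusters tested. Without the 1.5-fold, 18 of the 59 members passed the adjusted p alone with wild type KLF11, against 3628 of the 20961 clusters (17.3%). Of these 18, 4 were higher and 14 lower. With A347S 28 of the 59 passed it, 9 higher and 19 lower, against 5946 clusters (28.4%). With Δ486 21 of the 59 passed it, 6 higher and 15 lower, against 4692 clusters (22.4%). The shares of all clusters by direction at the adjusted p alone were not counted, so that these splits stand without a background. All 4 comparisons share the EV arrays, so that a deviation of those arrays enters each of them. In total 48 members passed with no construct, and 5 with wild type KLF11, A347S and Δ486 alike. The matching shares of all clusters were not counted, so that these counts stand without a background. Beside the 5 genes common to wild type KLF11, A347S and Δ486, SLC25A33 passed with wild type KLF11 and A347S, SFXN4 with A347S and Δ486, and SLC25A18, SLC25A20, SLC25A26 and SLC25A44 with A347S alone.

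**Figure D1:**
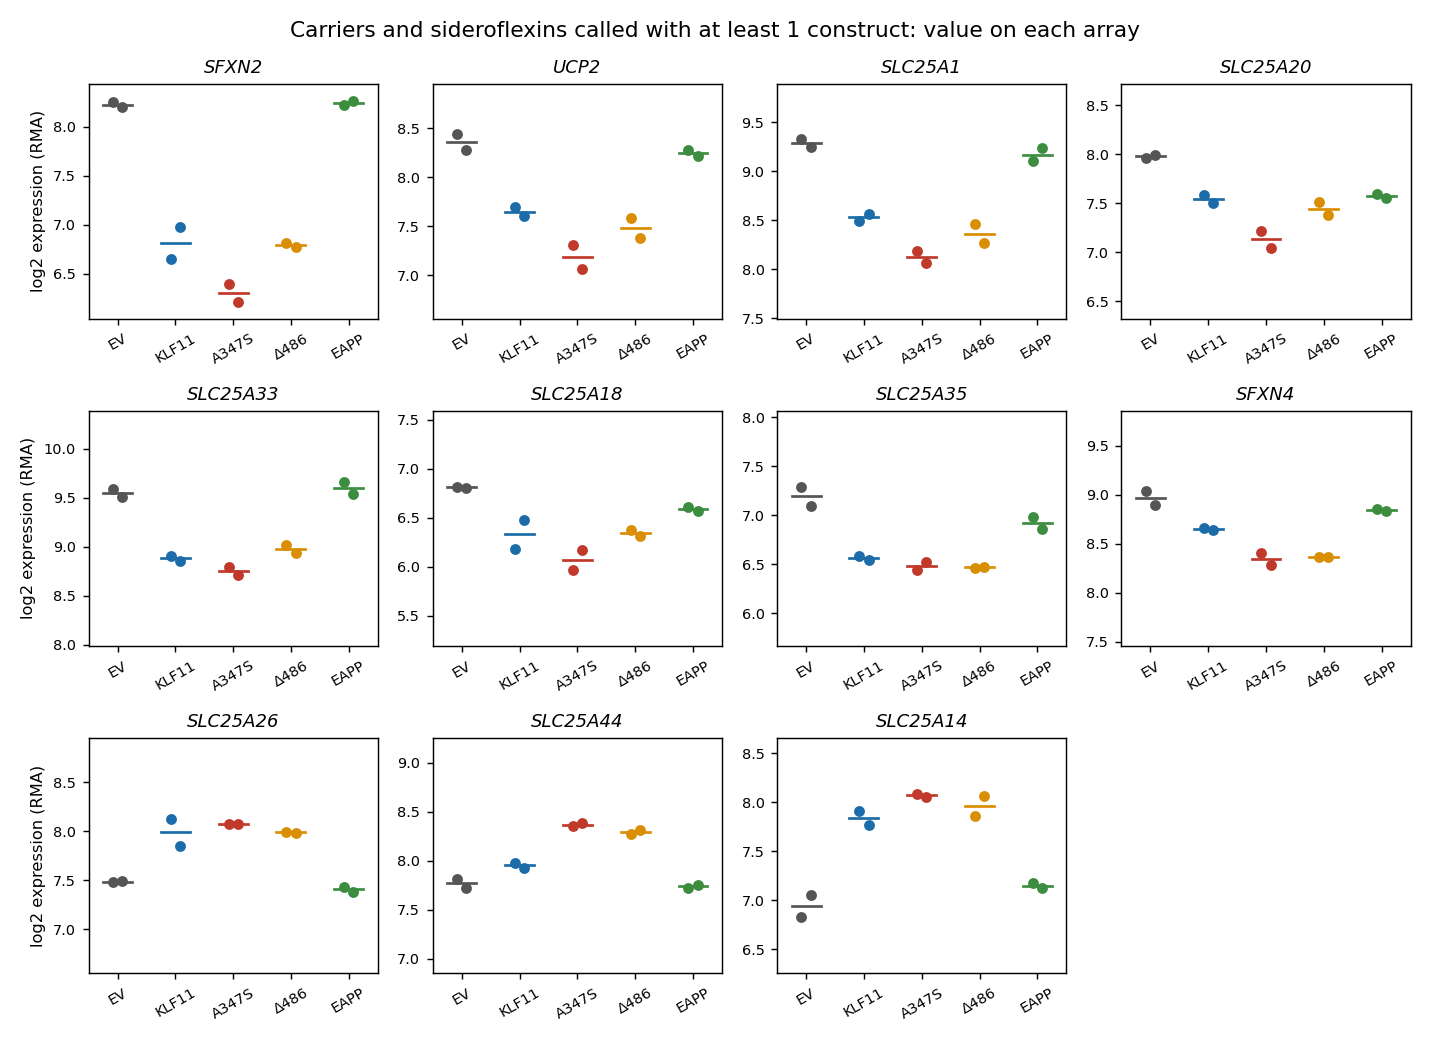
Log2 expression on each of the 10 arrays (y axis, the same span in every panel) for members called with a construct, by group (x axis), points being arrays and bars group means. The EAPP arrays of SFXN2 sit at 8.22 and 8.27 beside EV at 8.25 and 8.20, while those of wild type KLF11, A347S and Δ486 lie between 6.21 and 6.97.

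SFXN2, a sideroflexin linked to serine transport and iron, showed the largest change among the members with each of wild type KLF11, A347S and Δ486. It read 8.25 and 8.20 log2 with EV. On the arrays of wild type KLF11 it read 6.65 and 6.97, on those of A347S 6.39 and 6.21, on those of Δ486 6.81 and 6.77, and on those of EAPP 8.22 and 8.27. All 6 arrays of the constructs with which it fell lay more than a log2 unit below all 4 arrays of EV and EAPP. The changes were -1.41 (adjusted p = 0.000172), -1.92 (adjusted p = 1.24e-05) and -1.43 (adjusted p = 9.29e-05), each with a standard error of 0.11. For EAPP the change was 0.02, with a 95% interval from -0.22 to 0.27.

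UCP2, a widely made member of the uncoupling proteins, and SLC25A1, the carrier that exports citrate to the cytosol for fatty acid and sterol synthesis, fell with the same constructs and to like degrees. UCP2 read 8.45 and 8.28 with EV. The wild type KLF11 arrays read 7.70 and 7.60, the A347S arrays 7.31 and 7.07, the Δ486 arrays 7.58 and 7.38 and the EAPP arrays 8.27 and 8.21. SLC25A1 read 9.33 and 9.24 with EV, 8.50 and 8.56 under wild type KLF11, 8.19 and 8.06 under A347S, 8.46 and 8.27 under Δ486, and 9.10 and 9.24 under EAPP. In both genes the 2 A347S arrays were the lowest of the 10, and the EAPP arrays lay just under EV. The changes of UCP2 were -0.71 (adjusted p = 0.0022), -1.18 (adjusted p = 7e-05) and -0.88 (adjusted p = 0.000531) with wild type KLF11, A347S and Δ486, with a standard error of 0.11. Those of SLC25A1 were -0.75 (adjusted p = 0.000861), -1.16 (adjusted p = 4.01e-05) and -0.92 (adjusted p = 0.000239), with a standard error of 0.09. With EAPP the intervals were -0.36 to 0.12 for UCP2 and -0.32 to 0.09 for SLC25A1.

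SLC25A14, also called UCP5, rose with the constructs with which UCP2 fell. It read 6.83 and 7.05 with EV. On the arrays of wild type KLF11 it read 7.91 and 7.77, on those of A347S 8.09 and 8.06, on those of Δ486 7.86 and 8.07, and on those of EAPP 7.17 and 7.12. The EAPP arrays lay above both EV arrays and below the 6 others. Its changes were 0.90 (adjusted p = 0.000584), 1.13 (adjusted p = 6.88e-05) and 1.03 (adjusted p = 0.000228), and 0.21 with EAPP (95% interval -0.02 to 0.44), with a standard error of 0.10.

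SLC25A35, a carrier whose substrate is not settled, read 7.29 and 7.10 with EV. The wild type KLF11 arrays read 6.59 and 6.54, the A347S arrays 6.44 and 6.53, the Δ486 arrays 6.47 and 6.47 and the EAPP arrays 6.98 and 6.86. Every construct array lay below both EV arrays, those of EAPP by the least. The changes were -0.63 (adjusted p = 0.00144), -0.71 (adjusted p = 0.000279), -0.72 (adjusted p = 0.000494) and, with EAPP, -0.27 (adjusted p = 0.401). The call with wild type KLF11 was lost without EV replicate 1, where the change was -0.53.

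Of these 5 genes, SLC25A35 had no promoter window and could not be searched. The promoters of the other 4 are shown, since these genes passed with wild type KLF11, A347S and Δ486 alike, 3 of them lower and SLC25A14 higher. The motifs CCCCGC and CCCCAC, which the study names as the core of the sites that KLF11 binds, were searched in them. Each window runs from 250 bases before to 50 after the annotated start (RefSeq, GRCh38.p14), is written 5′ to 3′ on the strand of the gene, and has each match to either motif, on either strand, in capitals. That of SFXN2 lies at chr10:102714386-102714685 on the + strand, that of SLC25A1 at chr22:19178687-19178986 on the - strand, that of UCP2 at chr11:73983153-73983452 on the - strand, and that of SLC25A14 at chrX:130339669-130339968 on the + strand.
SFXN2: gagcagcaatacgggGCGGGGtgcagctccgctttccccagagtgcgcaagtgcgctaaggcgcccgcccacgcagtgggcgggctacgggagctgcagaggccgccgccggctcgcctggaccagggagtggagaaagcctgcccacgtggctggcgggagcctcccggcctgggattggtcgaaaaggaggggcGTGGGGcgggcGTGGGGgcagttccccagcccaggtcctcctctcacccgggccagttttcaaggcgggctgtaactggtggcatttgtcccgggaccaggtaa
SLC25A1: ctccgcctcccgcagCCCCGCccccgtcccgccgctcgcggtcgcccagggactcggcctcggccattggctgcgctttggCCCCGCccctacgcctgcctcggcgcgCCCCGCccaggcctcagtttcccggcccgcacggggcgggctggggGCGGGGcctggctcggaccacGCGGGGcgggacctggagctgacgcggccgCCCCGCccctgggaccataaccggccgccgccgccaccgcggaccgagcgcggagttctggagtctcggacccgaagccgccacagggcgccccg
UCP2: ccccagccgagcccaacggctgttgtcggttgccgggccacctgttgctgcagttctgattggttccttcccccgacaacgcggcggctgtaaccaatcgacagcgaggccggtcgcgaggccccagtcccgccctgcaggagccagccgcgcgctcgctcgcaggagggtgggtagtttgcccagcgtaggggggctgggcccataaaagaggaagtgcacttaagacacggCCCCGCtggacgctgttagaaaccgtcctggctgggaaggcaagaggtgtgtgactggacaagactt
SLC25A14: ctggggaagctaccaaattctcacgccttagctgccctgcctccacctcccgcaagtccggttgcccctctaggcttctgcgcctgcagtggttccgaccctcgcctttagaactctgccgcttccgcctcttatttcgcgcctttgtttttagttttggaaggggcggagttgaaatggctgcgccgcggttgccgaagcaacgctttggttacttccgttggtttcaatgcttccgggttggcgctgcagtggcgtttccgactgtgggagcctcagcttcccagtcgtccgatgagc

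The SFXN2 window holds 3 matches, which begin at -235, -54 and -43 from the start, that of SLC25A1 holds 6, and that of UCP2 holds 1, which begins at -17, while the window of SLC25A14, the gene that rose, holds 0. Among the 50 members with a window in the table, 34 (68%) hold at least 1 match to either motif, against 56.4% of all 27305 windows of the same length and 68.6% of the 14208 windows of genes with a single-symbol cluster. CCCCGC was found in 31 of the 50 (62%), against 41.2% of all windows and 55.5% of those of genes with a single-symbol cluster, and CCCCAC in 13 (26%), against 32.5% and 35.9%. Overlapping matches were each counted. Of the 10 members called with any construct that have a window, 6 (60%) hold a match, and of the 40 not called, 28 (70%) do. By direction, 6 of the 7 that fell with A347S and 0 of the 3 that rose hold one. A match is only a match of letters, and this split was noticed after the values were seen and was given no test. Called members with a match had windows of 64.7% (UCP2) to 80.3% (SLC25A1) G and C. Those without a match had 41% (SLC25A26) to 58.7% (SLC25A14). The part of base content in the split was not tested.

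**Figure D2:**
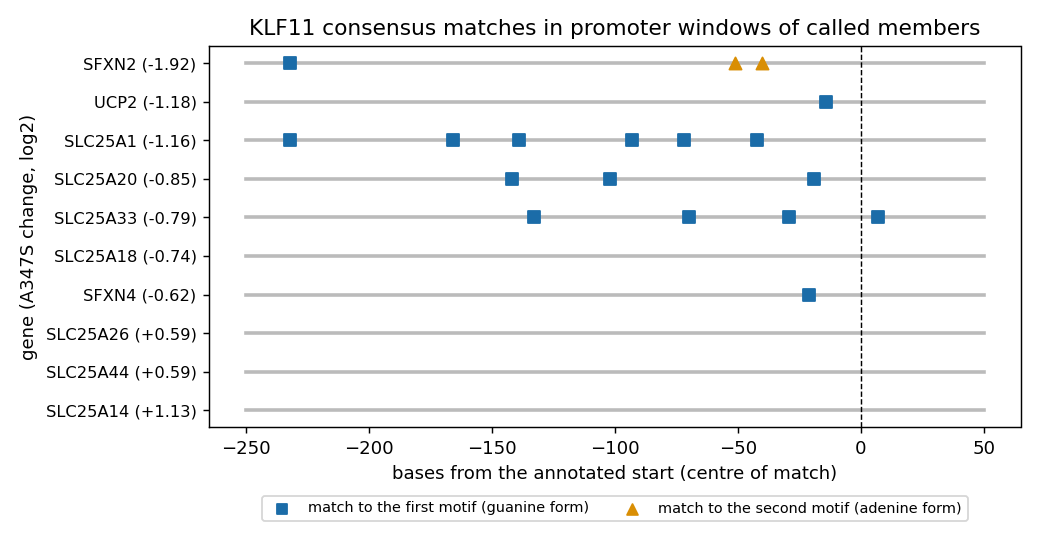
Matches to CCCCGC (squares) and CCCCAC (triangles) in the promoter windows of members called with any construct, by the distance of the centre of the match from the annotated start in bases (x axis), with 1 line per gene and its change with A347S beside the name (y axis). SLC25A1 carries 6 matches and SFXN2 3, while the genes that rose carry 0.

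The uncoupling group also takes in the proton leak of brown fat UCP1, the muscle form UCP3, SLC25A27 (UCP4) and SLC25A30. UCP2 and SLC25A14 were its only members that passed the threshold. That is 2 of 6 genes with each of wild type KLF11, A347S and Δ486, against 3.99%, 8.98% and 5.61% of all clusters. UCP3, the neighbour of UCP2 in the genome, read 6.25 and 6.04 with EV and 6.59 and 6.51 with A347S. Its changes were 0.37 (adjusted p = 0.0550), 0.41 (adjusted p = 0.0241), 0.22 (adjusted p = 0.217) and 0.15 (adjusted p = 0.779) with wild type KLF11, A347S, Δ486 and EAPP, all short of the 1.5-fold and opposite in sign to UCP2. UCP1 and SLC25A27 had means under 5 log2 over the arrays.

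Among the di- and tricarboxylate carriers, SLC25A1 was the only one of 4 that passed against EV. Of all clusters 3.99%, 8.98% and 5.61% passed with wild type KLF11, A347S and Δ486. A count this small does not set the group apart. SLC25A10, the dicarboxylate carrier, which exchanges malate or succinate for phosphate, read 8.95 and 9.0 with EV, 8.65 and 8.56 under wild type KLF11, 8.42 and 8.49 under A347S, 8.57 and 8.45 under Δ486, and 8.94 and 9.18 under EAPP. Its changes of -0.37, -0.52, -0.47 and 0.08 did not reach the 1.5-fold, with adjusted p of 0.0249, 0.00254, 0.0065 and 0.859. SLC25A11, the oxoglutarate/malate carrier of the malate-aspartate shuttle, read 9.83 and 9.85 with EV, 9.91 and 9.95 under wild type KLF11, 9.76 and 9.81 under A347S, 9.77 and 9.72 under Δ486, and 9.89 and 9.81 under EAPP. Its changes lay between -0.10 and 0.09, and none passed the adjusted p.

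**Figure D3:**
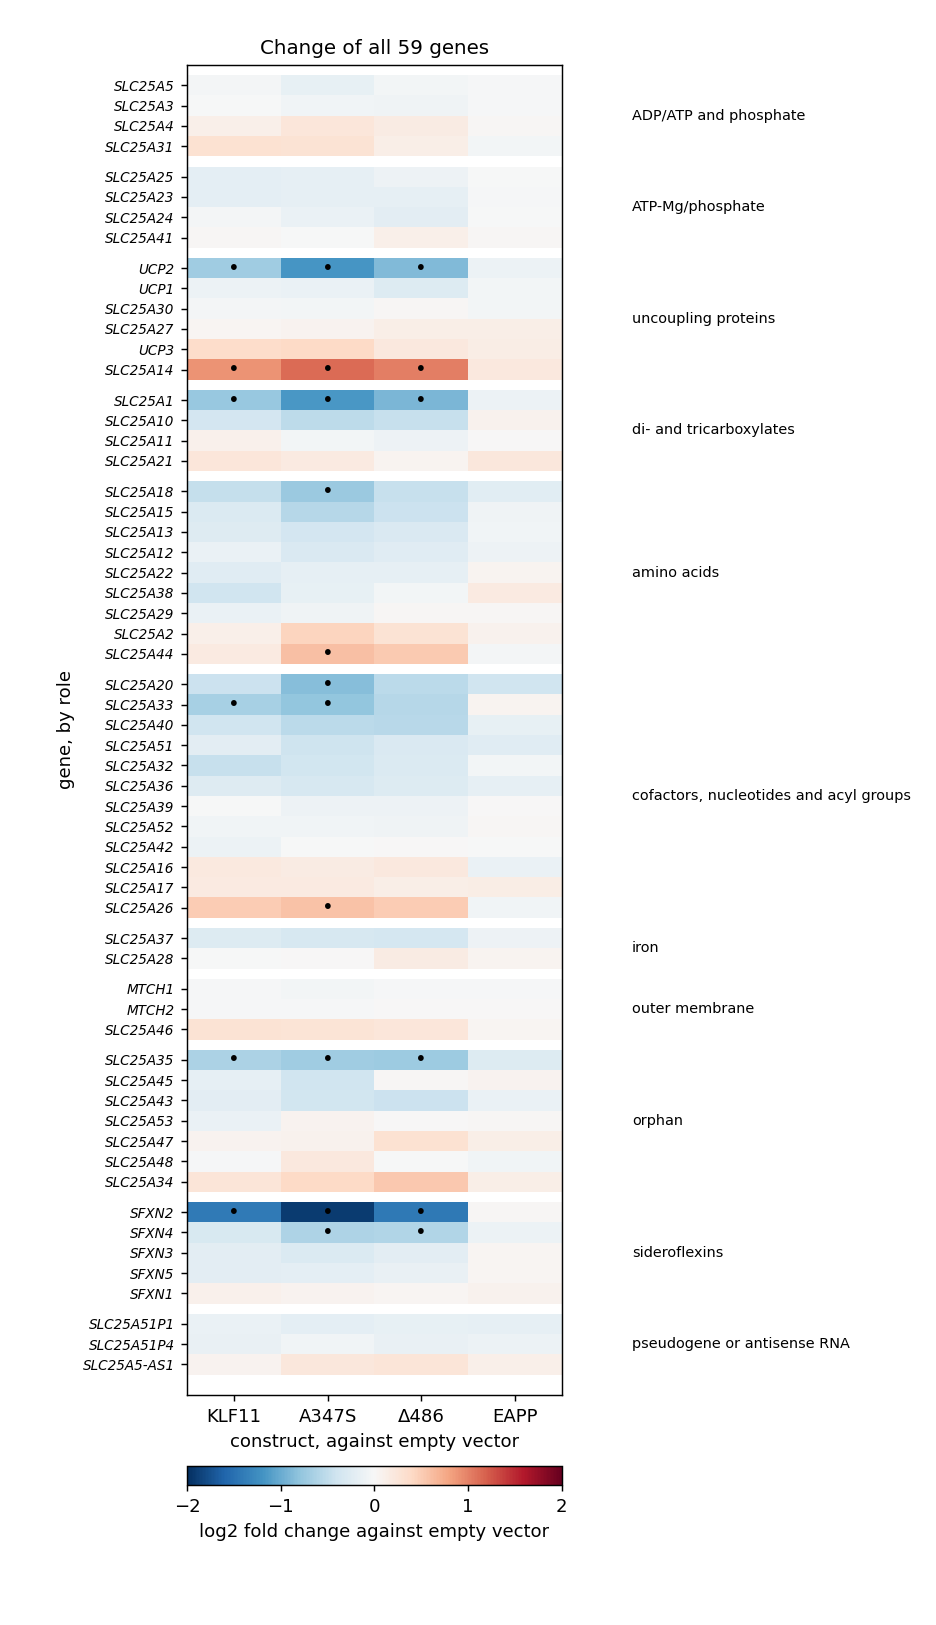
Log2 change against EV (colour) of the 59 members (y axis, ordered by role) with wild type KLF11, A347S, Δ486 and EAPP (x axis), with dots on changes that passed the threshold. The EAPP column holds 0 dots, and SFXN2 is the darkest row in the others.

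In the amino acid group, 2 of 9 members changed, both with A347S alone and in opposite directions, against 8.98% of all clusters with A347S. A count this small does not set the group apart. SLC25A18, a glutamate carrier, read 6.82 and 6.81 with EV. On the arrays of wild type KLF11 it read 6.19 and 6.48, on those of A347S 5.97 and 6.17, on those of Δ486 6.38 and 6.31, and on those of EAPP 6.61 and 6.57. It fell by 0.74 with A347S (adjusted p = 0.00063), and its other changes were -0.48, -0.47 and -0.22 with wild type KLF11, Δ486 and EAPP. Without wild type KLF11 replicate 2 the change with that construct was -0.62 and passed. SLC25A44, which carries branched-chain amino acids into mitochondria, read 7.82 and 7.73 with EV. The wild type KLF11 arrays read 7.98 and 7.93, the A347S arrays 8.35 and 8.38, the Δ486 arrays 8.27 and 8.31 and the EAPP arrays 7.72 and 7.75. The A347S and Δ486 arrays lay above all others. Its rise of 0.59 with A347S (adjusted p = 0.000247) was at the edge of the fold threshold and was lost without EV replicate 2 (0.55) or without A347S replicate 2 (0.58), and with Δ486 the change was 0.52 (adjusted p = 0.000927).

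SLC25A13, known as citrin, an aspartate/glutamate carrier of the malate-aspartate shuttle, read 10.62 and 10.66 with EV, 10.38 and 10.40 under wild type KLF11, 10.30 and 10.25 under A347S, 10.30 and 10.36 under Δ486, and 10.56 and 10.59 under EAPP. Its changes of -0.25, -0.37 and -0.31 stayed short of the 1.5-fold, and that with EAPP was -0.07. SLC25A38, the glycine carrier needed for haem synthesis, had its largest change with wild type KLF11 at -0.40 (adjusted p = 0.0140), beside -0.16, -0.06 and 0.17 with A347S, Δ486 and EAPP. It was picked out after its values were seen. Over the 9 amino acid carriers the median changes were -0.25, -0.18, -0.17 and -0.03 for wild type KLF11, A347S, Δ486 and EAPP.

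Of the 12 carriers of cofactors, nucleotides and acyl groups, 3 changed. SLC25A33, a pyrimidine nucleotide carrier, read 9.59 and 9.50 with EV, 8.91 and 8.86 under wild type KLF11, 8.80 and 8.72 under A347S, 9.01 and 8.94 under Δ486, and 9.66 and 9.54 under EAPP. The EAPP arrays overlapped those of EV, and the 6 others all lay below both. SLC25A33 fell under wild type KLF11, at -0.67 (adjusted p = 0.000743), and under A347S, at -0.79 (adjusted p = 0.000105), and the change of -0.57 with Δ486 (adjusted p = 0.000962) was just short of the fold threshold, which it passed without EV replicate 2 (-0.62) or without Δ486 replicate 1 (-0.61). Its dimmer cluster changed by -0.71, -0.89 and -0.67, all of which passed, and stood at 0.06 with EAPP.

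SLC25A20, the carnitine/acylcarnitine carrier that brings long-chain fatty acids to beta-oxidation, read 7.96 and 8.0 with EV. On the arrays of wild type KLF11 it read 7.59 and 7.5, on those of A347S 7.21 and 7.04, on those of Δ486 7.51 and 7.38, and on those of EAPP 7.60 and 7.56. Here the EAPP arrays lay with those of wild type KLF11 and not with EV. It fell by 0.85 with A347S (adjusted p = 0.000108), and its changes were -0.43 with wild type KLF11, -0.54 with Δ486 and -0.40 with EAPP, the last with an adjusted p of 0.231 and a 95% interval from -0.59 to -0.21. Without Δ486 replicate 1 the change with Δ486 was -0.60 and passed. SLC25A26, which imports S-adenosylmethionine for methylation in mitochondria, read 7.48 and 7.49 with EV. The wild type KLF11 arrays read 8.12 and 7.85, the A347S arrays 8.07 and 8.07, the Δ486 arrays 8.0 and 7.98 and the EAPP arrays 7.44 and 7.38. It rose by 0.59 with A347S (adjusted p = 0.00101), and the changes of 0.50 with wild type KLF11 and 0.51 with Δ486 were below the 1.5-fold. Without wild type KLF11 replicate 2 the change with that construct was 0.64 and passed.

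SLC25A32, a folate and FAD carrier, read 10.52 and 10.44 with EV, 9.9998 and 10.05 under wild type KLF11, 10.07 and 10.12 under A347S, 10.09 and 10.31 under Δ486, and 10.46 and 10.40 under EAPP. Its changes of -0.46, -0.39 and -0.28 passed the adjusted p and not the fold. SLC25A40, a relative of the glutathione carrier SLC25A39, stood at -0.40, -0.53 and -0.56 with wild type KLF11, A347S and Δ486 and at -0.16 with EAPP, also without reaching the 1.5-fold. Without Δ486 replicate 2 the change with Δ486 was -0.66 and passed.

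Of the 5 sideroflexins, 1 passed with wild type KLF11 and 2 each with A347S and Δ486, against 3.99%, 8.98% and 5.61% of all clusters. Beside SFXN2, SFXN4, which is linked to the assembly of respiratory complex I, fell, while SFXN1, SFXN3 and SFXN5 passed with no construct. In SFXN3 and SFXN5 too, the wild type KLF11, A347S and Δ486 arrays lay below both EV arrays. The A347S arrays of SFXN3 read 6.34 and 6.46, beside 6.68 and 6.71 with EV. Those of SFXN5 read 7.105 and 7.01, beside 7.26 and 7.23. For EAPP against A347S, 4 of the 5 passed the adjusted p, all higher in EAPP, against 23.4% of all clusters. SFXN4 read 9.04 and 8.90 with EV. On the arrays of wild type KLF11 it read 8.67 and 8.64, on those of A347S 8.41 and 8.28, on those of Δ486 8.37 and 8.37, and on those of EAPP 8.85 and 8.83. It fell under A347S, at -0.62 (adjusted p = 0.000342), and under Δ486, at -0.60 (adjusted p = 0.000753), both near the threshold, and with wild type KLF11 the change was -0.31. Without EV replicate 1 the values were -0.55 and -0.53, and without A347S replicate 2 the first was -0.55, none of which passed. SFXN1, the serine transporter, read 11.28 and 11.25 with EV, 11.38 and 11.37 under wild type KLF11, 11.33 and 11.33 under A347S, 11.28 and 11.32 under Δ486, and 11.37 and 11.34 under EAPP. Its changes of 0.11, 0.06, 0.03 and 0.09 did not pass, with adjusted p from 0.33 to 0.779.

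The ADP/ATP and phosphate carriers, the ATP-Mg/phosphate carriers, the iron carriers and the members of the outer membrane gave 0 calls with each construct on their brighter clusters. These groups hold 4, 4, 2 and 3 genes. Of all clusters 3.99%, 8.98%, 5.61% and 0.00477% passed with wild type KLF11, A347S, Δ486 and EAPP. In groups this small 0 calls do not set them apart. SLC25A5, the ADP/ATP carrier of proliferating cells, read 12.15 and 12.06 with EV, 12.08 and 12.04 under wild type KLF11, 11.995 and 11.89 under A347S, 12.12 and 11.98 under Δ486, and 12.04 and 12.13 under EAPP. Both A347S arrays lay below both EV arrays, which held for no other construct, and the change was -0.16 (adjusted p = 0.179). MTCH2, which inserts proteins into the outer membrane, read 12.12 and 12.10 with EV, 12.08 and 12.09 under wild type KLF11, 12.05 and 12.11 under A347S, 12.09 and 12.13 under Δ486, and 12.10 and 12.12 under EAPP, with changes between -0.03 and 0.01. SLC25A24, a calcium-regulated ATP-Mg/phosphate carrier, read 8.71 and 8.76 with EV, 8.78 and 8.63 under wild type KLF11, 8.63 and 8.57 under A347S, 8.50 and 8.54 under Δ486, and 8.78 and 8.68 under EAPP. None of these 3 genes had a change that passed the adjusted p with any construct. The testis ADP/ATP carrier SLC25A31 was one of 5 members with a mean under 5 log2, and read 3.90 and 3.87 with EV, 4.23 and 4.14 under wild type KLF11, 4.27 and 4.06 under A347S, 4.03 and 3.9985 under Δ486, and 3.80 and 3.85 under EAPP. Its changes were 0.30, 0.28, 0.13 and -0.06, of which the first pair passed the adjusted p and not the fold.

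Smaller differences were measured in some of these groups. SLC25A46, an outer membrane member linked to mitochondrial shape, read 9.14 and 9.14 with EV, 9.41 and 9.44 under wild type KLF11, 9.41 and 9.43 under A347S, 9.42 and 9.36 under Δ486, and 9.15 and 9.21 under EAPP. The 6 arrays of wild type KLF11, A347S and Δ486 lay above the 4 others, and the changes of 0.28, 0.28 and 0.24 passed the adjusted p without the 1.5-fold. SLC25A37, mitoferrin 1, which supplies iron for haem and iron-sulphur clusters, read 8.64 and 8.49 with EV, 8.26 and 8.32 under wild type KLF11, 8.29 and 8.18 under A347S, 8.21 and 8.24 under Δ486, and 8.43 and 8.50 under EAPP on its brighter cluster. The EAPP arrays overlapped those of EV, and the changes of the other constructs were -0.28, -0.33 and -0.34. Its dimmer cluster stood at -0.36 (adjusted p = 0.0510), -0.69 and -0.60, the last pair of which passed, so that the clusters of this gene disagree on the call. The orphan carrier SLC25A43 read 8.14 and 8.08 with EV, 7.95 and 7.85 under wild type KLF11, 7.85 and 7.60 under A347S, 7.74 and 7.61 under Δ486, and 7.93 and 8.01 under EAPP. Every construct array lay below both EV arrays, with differences of -0.21, -0.38, -0.44 and -0.14 that did not reach the 1.5-fold, and the pseudogenes and the antisense RNA passed with no construct. SLC25A51, the NAD carrier, its close copy SLC25A52 and the pseudogenes named after it may share probes, so that their values are uncertain.

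Whether the constructs differ from each other was tested by direct contrasts in the same fit. EAPP differed from wild type KLF11 in 5 members, or 8.47%, against 2.51% of all clusters. There were 4 higher in EAPP (0.763% of all) and 1 lower (1.75% of all). SFXN2 was higher by 1.43 (adjusted p = 0.000274), SLC25A33 by 0.72 (adjusted p = 0.00094), SLC25A1 by 0.64 (adjusted p = 0.003) and UCP2 by 0.59 (adjusted p = 0.00832), and SLC25A14 was lower, at -0.70 (adjusted p = 0.00317). EAPP against Δ486 gave the same 5 genes (8.47% of members) in the same directions, against 3.26% of all clusters (1.36% higher and 1.9% lower). EAPP against A347S gave 8 members, or 13.6%, 5 higher and 3 lower, against 6.01% of all clusters (2.94% higher and 3.07% lower). They were these 5 with SLC25A10 higher by 0.60 and SLC25A26 and SLC25A44 lower, at -0.67 and -0.63. SLC25A20 and SLC25A35, the 2 members nearest to a change with EAPP, differed from wild type KLF11 by 0.03 (95% interval -0.16 to 0.22) and 0.36 (adjusted p = 0.0289, below the 1.5-fold).

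Some of these calls lay at the edge of the fold threshold. For EAPP against wild type KLF11, UCP2 was lost without EAPP replicate 1 (0.56) or wild type KLF11 replicate 2 (0.54), and SLC25A1 without EAPP replicate 2 (0.57). SLC25A33 was lost against Δ486 without EAPP replicate 1 (0.57), and SLC25A10 against A347S without A347S replicate 1 (0.56) or EAPP replicate 2 (0.48). Other members lay just short of the fold. Against wild type KLF11, SLC25A38 stood at 0.577 (adjusted p = 0.00453) and SLC25A26 at -0.58 (adjusted p = 0.00434). Without EAPP replicate 1 they were gained (0.67 and -0.61), as were SLC25A10 (0.67) and SLC25A26 (-0.61) against Δ486 and SLC25A45 (0.67) against A347S. Against A347S, SLC25A15 was gained without A347S replicate 1 (0.59) and SLC25A18 without A347S replicate 2 (0.62). The calls of SFXN2 and SLC25A14 held in all 3 contrasts with each array left out. Under cyclic loess scaling between the arrays, the split was 3 higher and 2 lower against wild type KLF11, where UCP2 (0.55) was lost and SLC25A26 (-0.62) gained. Against Δ486 it was 3 and 3, where SLC25A33 (0.58) was lost and SLC25A26 (-0.63) and SLC25A44 (-0.60) were gained. Without the 1.5-fold, 14 of the 59 members passed the adjusted p for EAPP against wild type KLF11, beside 2254 of 20961 clusters (10.8%). Against A347S 23 of the 59 passed, beside 4899 clusters (23.4%), and against Δ486 15 of the 59, beside 3148 clusters (15%). These contrasts share the EAPP arrays and, with the comparisons against EV, the arrays of the other constructs.

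**Figure D4:**
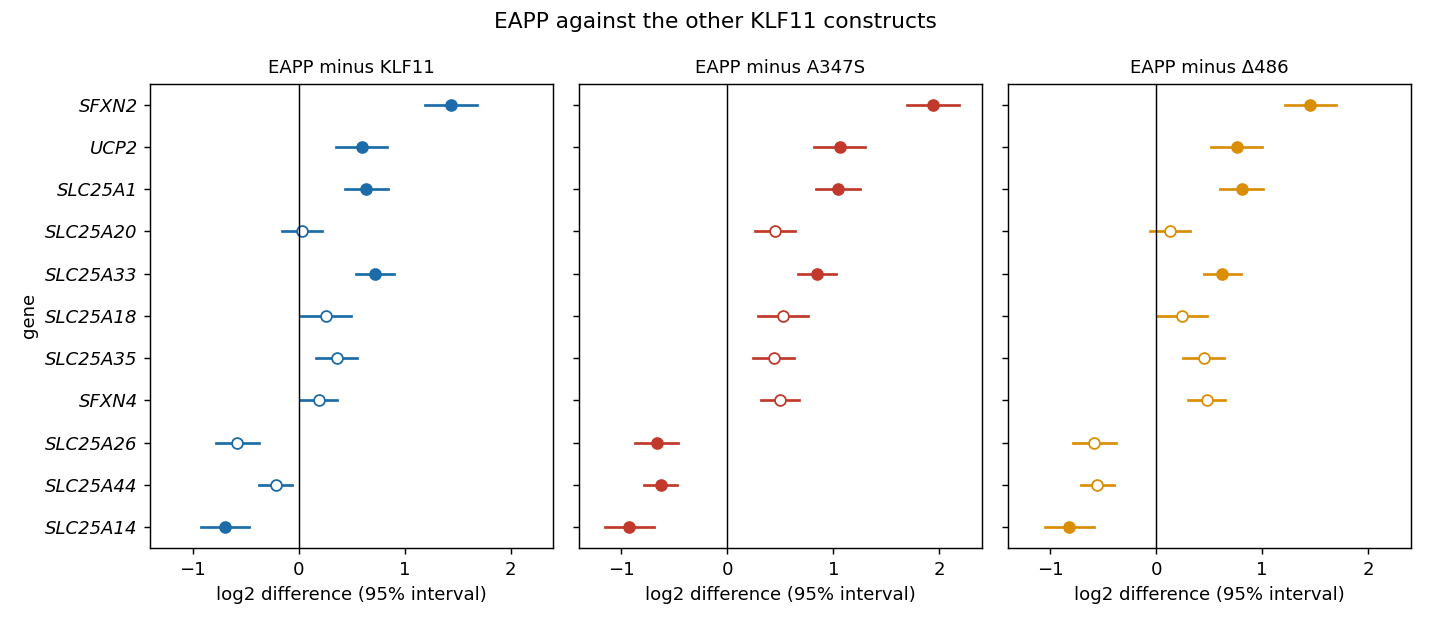
Difference in log2 expression between EAPP and wild type KLF11, A347S or Δ486 (x axis; points are differences, bars 95% intervals) for the 11 members called with any construct against EV (y axis), filled points being differences that passed the threshold. SFXN2 lies at 1.43, 1.94 and 1.46 and SLC25A14 at -0.70, -0.92 and -0.82.

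Among A347S, Δ486 and wild type KLF11, limma gave 0 members and 0% of all clusters in each of the 3 direct contrasts. At an unadjusted p under 0.05 there were 12 of the 59 members for A347S against wild type KLF11, beside 3017 of 20961 clusters (14.4%). For Δ486 against wild type KLF11 there were 8 of the 59, beside 2211 clusters (10.5%). For A347S against Δ486 there were 9 of the 59, beside 1557 clusters (7.43%). The difference A347S minus wild type KLF11 was -0.51 in SFXN2 (95% interval -0.75 to -0.26, adjusted p = 0.167), -0.46 in UCP2 (-0.70 to -0.23, adjusted p = 0.185), -0.42 in SLC25A20 (-0.61 to -0.23, adjusted p = 0.167) and -0.41 in SLC25A1 (-0.61 to -0.20, adjusted p = 0.185). In SLC25A44 it was 0.41 (0.25 to 0.57, adjusted p = 0.128). Genes called with A347S alone are therefore not shown to differ between A347S and wild type KLF11.

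Genes that work beside the carriers were read in the same fit, 48 of 54 listed having a single-symbol cluster. Of these, 3 fell with wild type KLF11, 5 with A347S, 4 with Δ486 and 0 with EAPP, and 0 rose. Among all clusters 1.78%, 5.35%, 3.23% and 0% fell and 2.21%, 3.63%, 2.38% and 0.00477% rose. The medians of the 48 were -0.07, -0.17, -0.10 and -0.01, beside -0.02, 0.01, 0.02 and 0.00 over all clusters. The 13 genes of carrier import, the TOM and TIM subunits that bring carriers to the inner membrane, gave 0 calls with any construct. Of this list TIMM10, a chaperone of the intermembrane space, stood at 0.39 with A347S (adjusted p = 0.00701), and TOMM40, the import pore, at -0.38 (adjusted p = 0.0499), both short of the 1.5-fold. The 3 outer membrane channels also gave 0 calls, with VDAC3 at -0.47 and VDAC1 at -0.35 with A347S.

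In the list of folate, serine and glycine use, which meets the sideroflexins and SLC25A32 in one-carbon metabolism, 1 of 13 genes fell under wild type KLF11, 2 under A347S and 2 under Δ486, with the shares of all clusters that fell as just given. SHMT1, the cytosolic enzyme that converts serine to glycine, fell with all of these constructs, with changes of -0.94 (adjusted p = 0.000299), -1.33 (adjusted p = 2.4e-05) and -1.19 (adjusted p = 9.3e-05), while that with EAPP was -0.07. ALDH1L2, a mitochondrial folate enzyme, fell under A347S (-0.67) and Δ486 (-1.01), and its changes of -0.49 with wild type KLF11 and -0.84 with EAPP (adjusted p = 0.149) did not pass. DLD, a subunit of the glycine cleavage system, stood at -0.27 under wild type KLF11, -0.50 under A347S, -0.43 under Δ486 and -0.04 under EAPP, with A347S and Δ486 passing the adjusted p (0.0017 and 0.00604) without the 1.5-fold. SHMT2, the mitochondrial counterpart of SHMT1, was looked at after its values were seen and stood at 0.41, 0.42 and 0.42 in the same order, opposite in sign to SHMT1, with adjusted p of 0.00723, 0.00341 and 0.00458 and also short of the 1.5-fold, and at 0.08 under EAPP. Among other inner membrane transporters, MPC1, a subunit of the pyruvate carrier, fell with wild type KLF11, A347S and Δ486, at -1.65, -1.44 and -1.24, and stood at -0.75 with EAPP (adjusted p = 0.199). SMDT1, a subunit of the calcium uniporter, fell under A347S (-0.76) and Δ486 (-0.62), and stood at -0.46 under wild type KLF11 (adjusted p = 0.00554) and -0.22 under EAPP. Of the 7 redox shuttle enzymes, GOT1, the cytosolic aspartate aminotransferase, fell by 0.73 with wild type KLF11, and stood at -0.58 with A347S (adjusted p = 0.000347, just short of the fold) and -0.44 with Δ486. For GPD2, the mitochondrial glycerophosphate dehydrogenase, the change of -0.69 under A347S passed, and those of -0.44 under wild type KLF11 (adjusted p = 0.00314) and -0.48 under Δ486 (adjusted p = 0.0013) were short of the fold. With EAPP the adjusted p was 0.363 for GOT1 and 0.614 for GPD2.

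**Figure D5:**
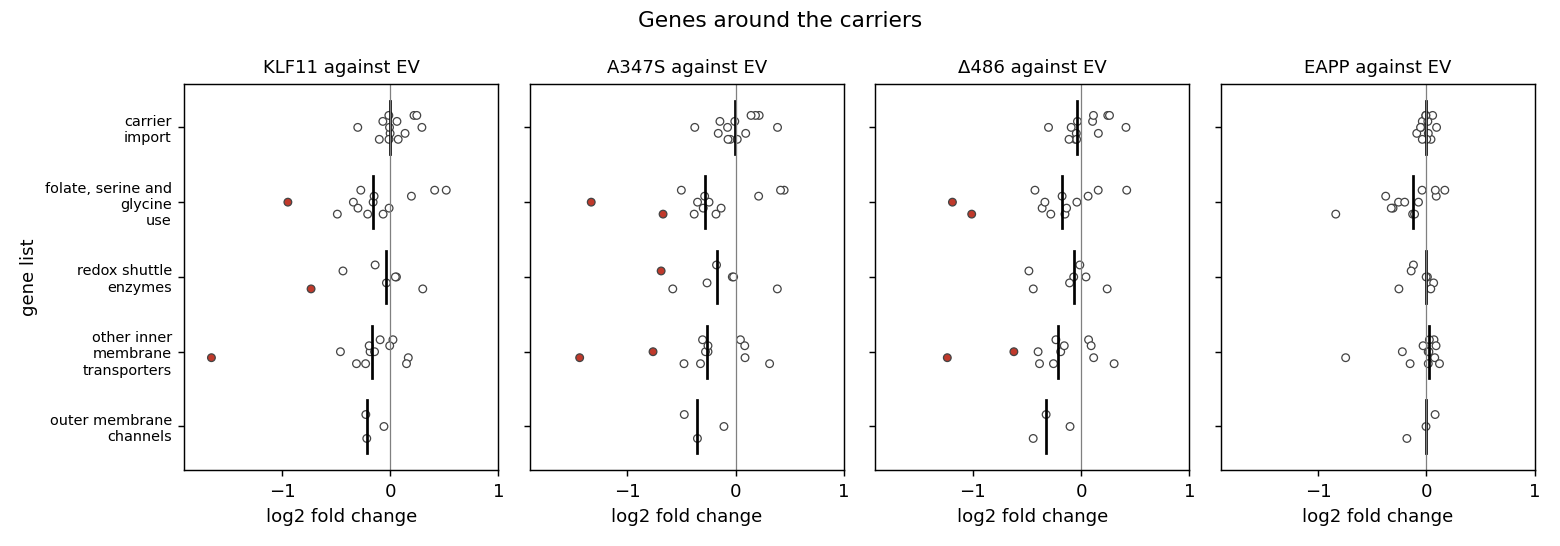
Log2 change against EV (x axis) of the genes of 5 lists that work beside the carriers (y axis), points being genes, filled points changes that passed the threshold and vertical bars the median of a list. The points furthest to the left are MPC1 at -1.65 under wild type KLF11, -1.44 under A347S and -1.24 under Δ486, and EAPP has 0 filled points.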

How the data were processed

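RNA of Panc1 cells was hybridized by the authors to Affymetrix Human Gene 1.0 ST arrays, 10 in all, and background-corrected and normalized by Robust Multiarray Analysis, and the submitters' processing notes name Partek 6.6. The deposited log2 values, used as they stand, are neither centred per gene nor set against a control, and no source used here names the genome build behind the annotation. Samples were grouped by the labels. The table holds 28869 clusters, of which the 7908 without a symbol were left out, and 1732 with several symbols were tested and never named. The 59 gene identifiers all matched RefSeq, with 0 names changed.

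Using limma 3.58.1 (R 4.3.3), a model with a mean per group was fitted over the 10 arrays, with 5 residual and 4.54 prior degrees of freedom and Benjamini-Hochberg adjustment over 20961 clusters. The code was tested on simulated data. Members described on every array are those called, and in each role group the brightest and the one that changed most; in neighbouring lists, those called and the 2 with the smallest p for A347S. Genes picked outside this rule are UCP3, SLC25A38, SLC25A40, SFXN3, SFXN5, SHMT2 and those named only for a call gained with an array left out. Members, lists and tests were chosen with earlier results of these data known. Alternatives covered thresholds, test, scaling, filters, the replicate block and each array left out in turn. Promoter windows are RefSeq's, and 50 members matched one. The qPCR and chromatin immunoprecipitation were not analysed here.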

Additional observations from a re-analysis of the deposited data

How the results depend on the processing

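Counts of members below are for wild type KLF11, A347S and Δ486 against EV, then for EAPP against wild type KLF11, A347S and Δ486. With the adjusted p and no fold threshold they were 18, 28 and 21, then 14, 23 and 15. With an absolute log2 change of 1.5, which the methods give, they were 0, 1 and 0, then 0, 1 and 0. The methods' t-test with Benjamini-Hochberg adjustment gave 0 in all 6 with the 1.5-fold, and 0 in all 6 with the log2 change of 1.5, the latter added after the data were seen, while its unadjusted p with the 1.5-fold changed no call against EV of a member described on every array. Under cyclic loess scaling, which removes a trend with intensity, the splits of higher and lower were 3 and 2 in place of 4 and 1 for EAPP against wild type KLF11, and 3 and 3 in place of 4 and 1 for EAPP against Δ486. SFXN4 was lost with A347S and Δ486 at -0.54 each, and SLC25A10 for EAPP against A347S at 0.54. The cause was not tested.

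With 1 array left out, whose group's lone array is then assumed to vary like the others, the counts ranged from 5 to 8, 9 to 12 and 5 to 8, then 4 to 6, 7 to 9 and 5 to 6. Members gained against EV in this way, beside those given with their genes, were SLC25A15 with A347S (-0.67 without A347S replicate 1), SLC25A51 with A347S (-0.59 without EV replicate 1) and SLC25A34 with Δ486 (0.64 without EV replicate 2 or Δ486 replicate 2). EAPP against EV, and the contrasts among wild type KLF11, A347S and Δ486, gave 0 each time. For the 23 members described on every array, over their comparisons with EV alone and all settings, 2003 results kept their side of the threshold, 76 lost it, 33 gained it and 0 reversed. Most of those kept were changes that did not pass to begin with. Of the 76 lost, 22 came with the log2 change of 1.5. Each adjusted form of the plain t-test lost 23 and kept no call. With each array left out in turn, 909 were kept, 6 lost and 5 gained.

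With the replicate number as a replicate block the counts were 6, 11 and 6, then 5, 8 and 5, and 0 for EAPP, with no call against EV of those 23 members changed. Same-numbered arrays correlated at -0.35 to 0.15 over 10 pairs of groups, 1 of them over 0.1, so that the numbers were not taken as pairs. Changes near the 1.5-fold, at a median standard error of 0.095, are the least certain here.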

Other observations

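The start of SFXN2 lies 239 bases from that of ARL3, a small GTPase known for moving lipid-modified proteins to cilia, which is read from the opposite strand, and their promoter windows share 262 bases. ARL3 read 8.80 and 8.71 log2 with EV. The wild type KLF11 arrays read 8.36 and 8.15, the A347S arrays 8.19 and 8.04, the Δ486 arrays 8.24 and 8.20 and the EAPP arrays 8.69 and 8.63. All 6 arrays of the constructs with which SFXN2 fell lay below the 4 arrays of EV and EAPP, as they did for SFXN2 itself. ARL3 fell by 0.64 with A347S (limma adjusted p = 0.000661), and its changes of -0.50 with wild type KLF11 and -0.54 with Δ486 passed the adjusted p without the 1.5-fold. With EAPP the change was -0.10.

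The neighbour was looked up after the values of SFXN2 had been seen. Among the members, 7 have a start of another gene within 1000 bases upstream on the opposite strand, read away from the member. Of these partners, 5 were measured. The other 4, PDZD7, RNF167, CYP39A1 and DBF4, lie beside members that passed with no construct, and they gave 0 calls with any construct, with RNF167 at 0.29 with A347S (limma adjusted p = 0.0176). Of all clusters 3.99%, 8.98%, 5.61% and 0.00477% passed with wild type KLF11, A347S, Δ486 and EAPP, so 0 calls among 4 genes do not set them apart.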
